A study of Mus musculus with 2 samples.

Results

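Klk-rich cells are a small class of thymic epithelial cell named for kallikreins, a family of secreted serine proteases. The class was taken from the cell annotation that the authors deposited, and it held 125 of 9185 annotated cells in 15 classes. The medulla of the thymus displays proteins of other organs to developing T cells. Its epithelial cells do so through the factor Aire, and some of them, called mimetic cells, resemble cells of skin, gut, muscle or other tissues.

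The samples were medullary thymic epithelial cells of C57BL/6 mice, depleted of CD45+ cells and sorted as the mTEClo fraction without surface Pdpn or CD104. A total of 4 samples were Hnf4dTEC, with the genotype Foxn1(cre/+) Hnf4a(fl/fl) Hnf4g(-/-), and 3 were Hnf4ctrl, with Foxn1(cre/+) Hnf4a(fl/+) Hnf4g(+/-). The Foxn1-driven cre, 1 or more floxed copies of Hnf4a and 1 or more null copies of Hnf4g were thus present in both groups, so neither group was wild type. Foxn1 drives the cre in thymic epithelium, while the loss of Hnf4g is not limited to a cell type. The labels give no age, and they do not say that the samples came from separate animals, so p-values measure only the spread between these samples.

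All 7 samples were marked with antibody tags and read in 1 droplet run by a 3′ assay, which counts UMIs, tags that mark 1 captured RNA molecule each. All 125 Klk-rich cells had their own sample's tag as the most abundant one, and all 9185 barcodes were unique. Klk-rich cells had a median of 12520 UMIs, 4094 genes and 1.11% mitochondrial UMIs, against 13029 UMIs, 4153 genes and 1.58% in all other annotated cells. The Klk-rich cells of 1 sample summed to between 65134 and 479153 UMIs. Levels below are CPM, the UMIs of a gene per 1000000 UMIs summed over the cells of a class in a sample, with no scaling by gene length. A total of 3 Klk-rich cells were marked as likely doublets by Scrublet, of 225 marked among all annotated cells, and they were kept.

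The label was checked against the Klk1 family first. In mice this family is a large array of close copies on chromosome 7, best known from the ducts of salivary glands, where its members cleave kininogen or process growth factors. Pancreatic acinar cells, which also recur below, make digestive proteases as inactive zymogens under the control of the factor Ptf1a. The 14 genes of the family and the pseudogene Klk1b7-ps lie on the plus strand between 43942662 and 44229618 of chromosome 7 (GRCm38), a stretch of 287.0 kb. Short stretches upstream of their RefSeq starts (GRCm38.p6) are given because most of the family was higher in the class together, with the bases TTTAAA in capitals.
Klk1b16, chr7:44137225-44137266, plus strand: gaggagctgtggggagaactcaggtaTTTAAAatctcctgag
Klk1b26, chr7:44012626-44012667, plus strand: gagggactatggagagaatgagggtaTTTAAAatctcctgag
Klk1b11, chr7:43995811-43995852, plus strand: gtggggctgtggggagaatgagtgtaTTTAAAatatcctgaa
Klk1b5, chr7:44216406-44216447, plus strand: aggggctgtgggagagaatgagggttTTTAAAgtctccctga
Klk1b9, chr7:43976002-43976043, plus strand: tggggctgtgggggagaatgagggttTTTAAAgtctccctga
Klk1b4, chr7:44207359-44207400, plus strand: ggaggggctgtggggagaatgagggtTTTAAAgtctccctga
Klk1b24, chr7:44188179-44188220, plus strand: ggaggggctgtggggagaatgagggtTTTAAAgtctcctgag
Prss2, chr6:41521734-41521775, plus strand: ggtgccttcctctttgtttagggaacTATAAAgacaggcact
Gp2, chr7:119459289-119459330, minus strand: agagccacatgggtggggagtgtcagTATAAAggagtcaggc

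Klk1b24 is shown as the least raised member of the family. Prss2 and Gp2, from the acinar set described below, hold TATAAA in capitals instead. RefSeq promoters matched all 14 family genes. TTTAAA, which reads the same on both strands, occurred in the 60 bases before the start of 12 of these 14, against 2.79% of 32851 mouse promoters. With at least 10 bases between it and the start it occurred in 11, and not in Klk1, Klk1b3 or Klk1b21. Klk1 and Klk1b3 were among the raised members all the same. The family's genes are close copies, so these are not independent promoters. The longer TATTTAAAA, searched on both strands and always holding a TTTAAA, occurred in 3 of 14, those of Klk1b16, Klk1b26 and Klk1b11, against 0.143% of promoters. TATAAA, searched on both strands, occurred in 0 of 14, against 3.92%. In GENCODE M21 some of these genes, Klk1b16 and Klk1b26 among them, start upstream of the RefSeq start used here. These matches describe letters in a window.

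Of the 14 family genes, 12 were at least 4-fold higher in Klk-rich cells than in all other annotated cells, on the median within-sample log2 ratio of CPM plus 10. Of 10846 genes measured, at a median of 10 CPM or more in either group, 0.738% were as much higher. The family's median log2 ratio was 4.16, against -0.10 over all measured genes. Summed CPM of the family lay between 5850 and 42973 in Klk-rich cells, with a median of 15780, against a median of 368 in all other cells. The class was made by clustering these same cells on expression, so these and all other differences between classes are descriptions without a test.

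Klk1, the family's kininogen-cleaving tissue kallikrein, reached 4264, 5930, 3471 and 4134 CPM in the Klk-rich cells of Hnf4dTEC samples 1 to 4. It reached 3654, 23367 and 5301 CPM in those of Hnf4ctrl samples 1 to 3, against a median of 246 CPM in all other cells. Every sample was far above its other cells, and Hnf4ctrl sample 2, with 6 Klk-rich cells, stood highest.

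Klk1b16, known as gamma-renin, was at 5317, 4811, 1174 and 4525 CPM in Klk-rich cells of Hnf4dTEC samples, and at 249.6, 5957 and 3944 CPM in those of Hnf4ctrl samples. All other cells had a median of 42.8 CPM, which gave a median log2 ratio of 6.15. Klk1b26 had 2548, 3112, 1011 and 2391 CPM in Hnf4dTEC and 219.6, 3316 and 2832 CPM in Hnf4ctrl Klk-rich cells, against 21.3 CPM in all other cells. Hnf4ctrl sample 1, with 8 Klk-rich cells, was the lowest of the 7 in both genes. The genotypes overlapped in both.

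Klk1b3 and Klk1b4, the gamma and alpha subunits of the nerve growth factor complex of the mouse salivary gland, had median log2 ratios of 4.96 and 3.78. Klk1b3 lay between 180 and 2932 CPM over the 7 samples, with a median of 692 CPM, against 7.13 CPM in all other cells. Klk1b9 and Klk1b22, which bind epidermal growth factor, were 4.19 and 3.50 higher on the same log2 scale. Klk1b5 had a median of 474 CPM, against 4.01 CPM in all other cells. Klk1b11 (4.89), Klk1b8 (4.12), Klk1b27 (3.34) and Klk1b1 (2.96) also passed 4-fold. Klk1b21 and Klk1b24 missed it at 1.81 and 1.40, with 68 and 49 UMIs over all Klk-rich cells. Klk1b7-ps, the transcribed pseudogene, was 3.97 higher.

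**Figure D1:**
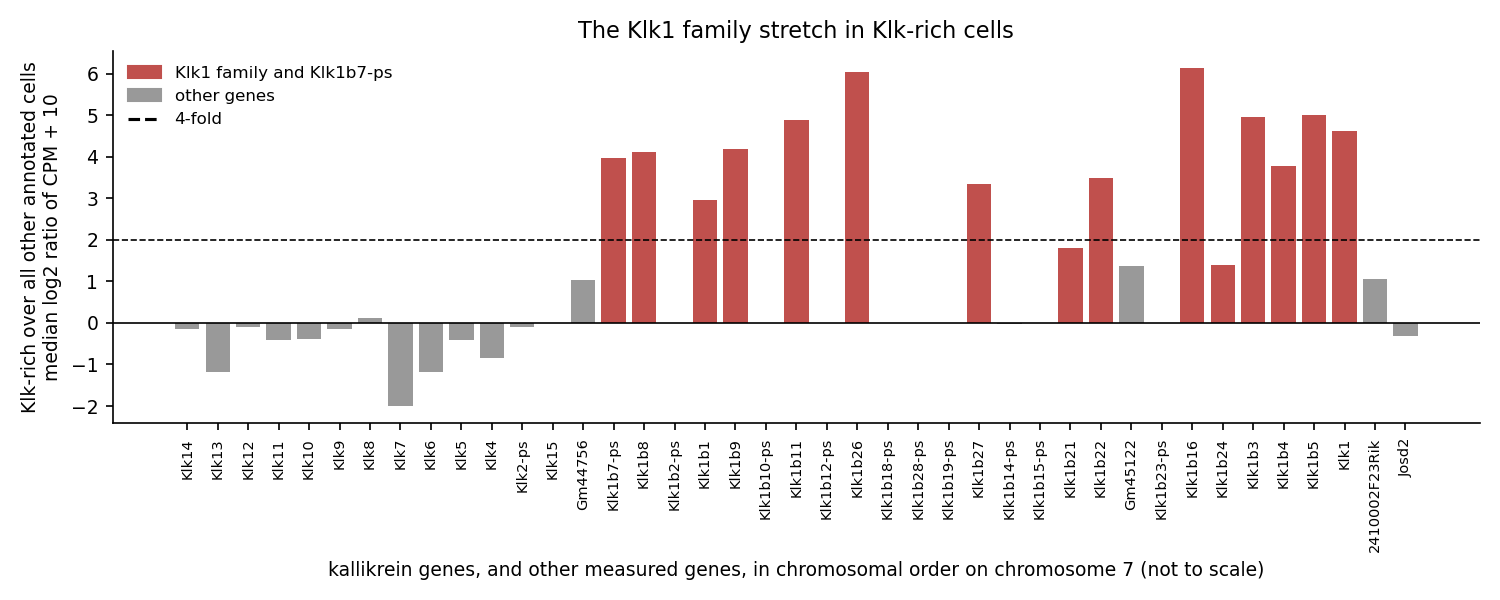
Median log2 ratio of CPM plus 10 in Klk-rich over all other annotated cells (y) for kallikreins and other measured genes in chromosomal order on chromosome 7 (x), with the Klk1 family in red and other genes in grey. The dashed line marks 4-fold, a log2 ratio of 2, which 12 of 14 family genes passed and the grey bars did not.

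Few genes beside the family were measured. Among 70 other genes within the stretch or 250 kb of it, 9 were measured and 0 were 4-fold higher, with log2 ratios between -2.01 and 1.38. The list of 12 other kallikreins, several of them epidermal, had 5 measured members, of which 0 were 4-fold higher and Klk7, a protease of skin shedding, was 4-fold lower. Klk5, Klk9, Klk11, Klk12 and Klk15 had 0 UMIs in Klk-rich cells. Of all measured genes, 0.738% were 4-fold higher and 1.7% were 4-fold lower, so 0 higher among so few genes is near the background.

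The family's copies are similar, which bears on how reads were split between them. In the last 400 bases of GENCODE transcripts, a median of 5.98% of 50-base words of a family gene also occurred in another family gene. Klk1b16 shared 0% and Klk1b11 0.285%, while Klk1 shared 23.4%, Klk1b24 25.4% and Klk1b21 28.8%. The single levels of those 3 genes are therefore less certain than the family's sum.

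Klk1 was not confined to the class. Neuroendocrine cells had a median of 2395 CPM and Ionocyte cells 1237 CPM over 2 samples, while Aire-adjacent cells had 404 CPM. Neuroendocrine cells had less of the family's other members, with 116 CPM of Klk1b16, 98.7 CPM of Klk1b4 and 13.7 CPM of Klk1b26. Klk-rich cells had 4525, 367 and 2548 CPM of these genes. In 48 of 707 Neuroendocrine cells the family made up 1% or more of UMIs, up to 7.30%. At least 1 Klk1 UMI was found in 64.8% of Klk-rich, 74.4% of Neuroendocrine and 8.35% of Tuft cells, at median depths of 12520, 12224 and 12186 UMIs. With each cell thinned to 3000 UMIs these shares were 54.4%, 58.7% and 3.08%. For Klk1b16 they were 60.8% of Klk-rich, 17.5% of Neuroendocrine and 4.76% of Tuft cells before thinning, and 53.6%, 9.44% and 2.23% after it. Tuft cells, a chemosensory class, were not the lowest class for these genes. Klk1 had medians of 31.6 CPM in Tuft and 2.13 CPM in transit-amplifying cells, and Klk1b16 had 12.5 and 0.692 CPM. How much of these levels came from free RNA was not tested.

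**Figure D2:**
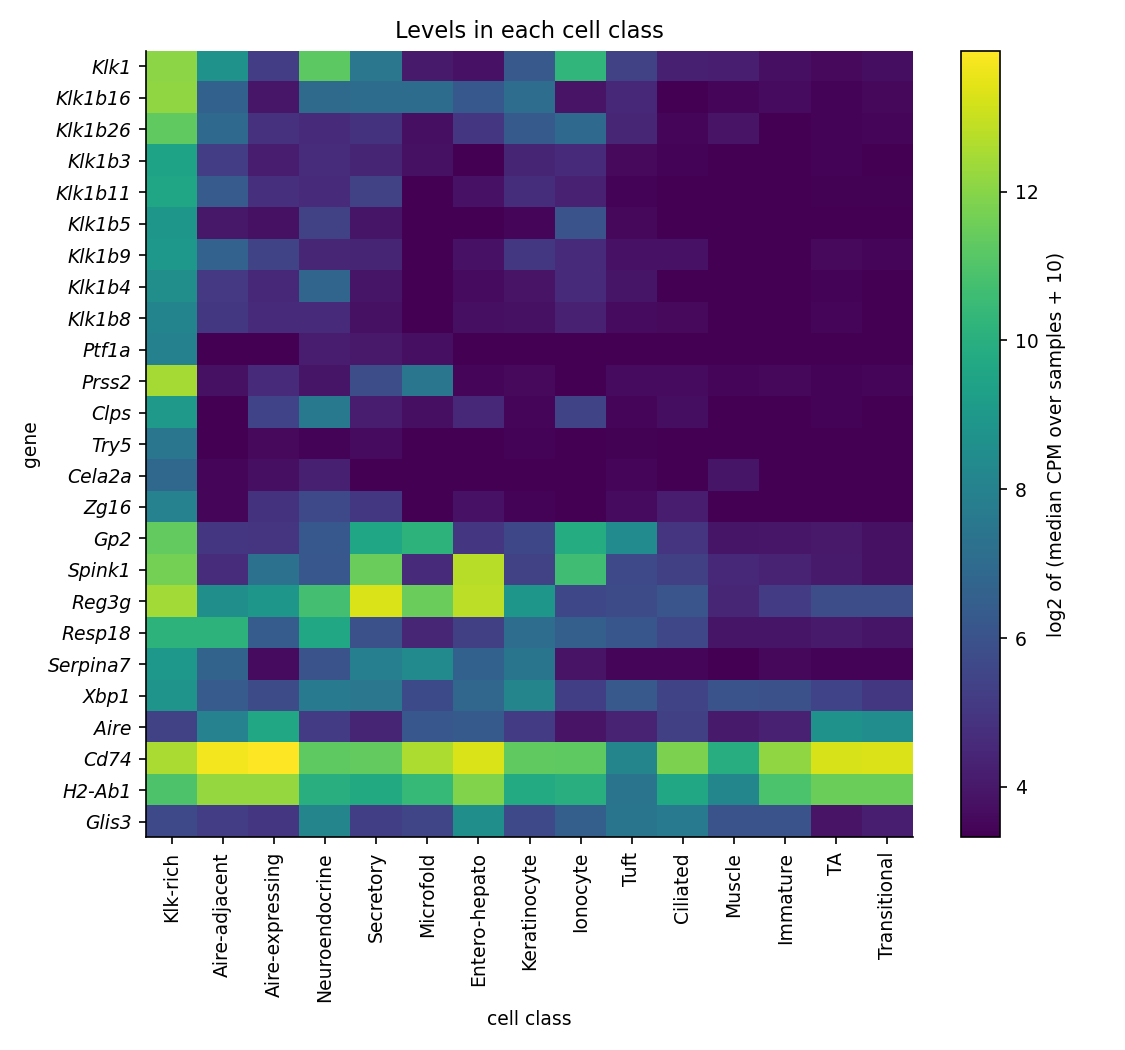
Level of each gene (rows) in each cell class (columns), as the log2 of the median CPM over samples plus 10, with Klk-rich cells in the first column. The Klk1b genes are bright in the Klk-rich column, while Klk1 is bright in Neuroendocrine cells also, at 2395 CPM.

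Within Klk-rich cells the family's share of a cell's UMIs ran from 0% to 7.23%, with a median of 0.840%. A total of 59 cells had 1% or more, and 24 had 0 UMIs of the family. At least 50% of all Klk1b16 UMIs lay in 9 cells, and at least 50% of all Klk1 UMIs in 12 cells.

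Genes of the exocrine pancreas formed the other set raised in the class. Of a list of 32 acinar genes, 10 were measured and 8 were at least 4-fold higher than in all other cells, namely Ptf1a, Cela2a, Prss2, Try5, Clps, Spink1, Zg16 and Gp2. The list's median log2 ratio was -0.01, so the list as a whole was not raised. A total of 7 members, Cpa1, Cpb1, Pnlip and Amy2a5 among them, had 0 UMIs. Summed CPM of the list lay between 6774 and 25478 in Klk-rich cells, with a median of 15822, against a median of 552 in all other cells. This sum does not show an acinar set in every sample. In Hnf4ctrl sample 2 it was 11714 CPM, nearly all from Spink1 (10440 CPM) and Gp2. Both genes were also found in other classes, with a median of 2871 CPM of Spink1 in Secretory cells.

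Ptf1a, a basic helix-loop-helix factor that specifies acinar cells, was at 238, 530.2, 229 and 272 CPM in Klk-rich cells of Hnf4dTEC samples. In those of Hnf4ctrl samples it was at 429, 0 and 121 CPM, against 1.42 CPM in all other cells. The 0 came from the 65134 UMIs of Hnf4ctrl sample 2, a depth at which a level of up to 46.1 CPM can give 0 counts. Ptf1a was one of several genes singled out after their values were seen, as were Try5, Cela2a and Zg16.

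Prss2, an anionic trypsinogen, had 10913, 7560, 1662 and 17499 CPM in Hnf4dTEC Klk-rich cells and 5650, 0 and 3669 CPM in Hnf4ctrl Klk-rich cells, against 36.1 CPM in all other cells. The sample without Ptf1a UMIs was also the one without Prss2 UMIs. Spink1, which blocks trypsin inside the acinar cell, had 926, 1497, 325 and 3240.0 CPM in Hnf4dTEC and 3853, 10440.0 and 6749 CPM in Hnf4ctrl Klk-rich cells, against 182 CPM in all other cells. It was high in the sample without Ptf1a. The Entero-hepato class had a median of 6921 CPM over 3 samples, against 3240.0 CPM in Klk-rich cells over all 7 samples. The values of Klk-rich cells in Hnf4ctrl samples lay on both sides of that Entero-hepato median.

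Gp2, a glycoprotein of zymogen granules that microfold cells also carry, had 1909, 2636, 2760 and 2838 CPM in Hnf4dTEC and 6439, 1274 and 1154 CPM in Hnf4ctrl Klk-rich cells. All other cells had a median of 253 CPM and the Microfold class 1126 CPM. The colipase gene Clps had 1464 UMIs in the class, but 94.1% of them lay in 10 cells. Other members rested on fewer cells still, since 1 cell held 547 of the 603 UMIs of Reg1, and 1 cell held all 58 UMIs of Pnliprp2. Of the acinar factors beside Ptf1a, Rbpjl had 23 UMIs in all.

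Trypsinogens are close copies, so the split of reads between Prss2 and Try5 is uncertain. Ptf1a UMIs were found in 43.2% of Klk-rich cells, against 2.69% of Neuroendocrine, 1.03% of Aire-adjacent, 0.510% of Aire-expressing and 0.170% of Tuft cells. At 3000 UMIs per cell the shares were 30.4%, 1.57%, 0.263%, 0.255% and 0.0489%. Klk-rich was the class with the highest median level of Ptf1a, Prss2 and Gp2.

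The 2 sets were found mostly in different cells. A total of 54 Klk-rich cells had a Ptf1a UMI and 71 had none, a split made after the values were seen and given without a test. The Klk1 family made up a median of 0.0334% of UMIs in cells with Ptf1a and 2.14% in cells without it. The acinar list, which includes Ptf1a itself, made up 1.81% and 0.0137%. Of the cells with Ptf1a, 42 had under 0.5% and 12 had 0.5% or more of their UMIs in the Klk1 family. Of the cells without it, 13 had under 0.5% and 58 had 0.5% or more. Depth was similar, at a median of 12434 and 13217 UMIs, and 0 and 3 cells were marked by Scrublet.

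**Figure D3:**
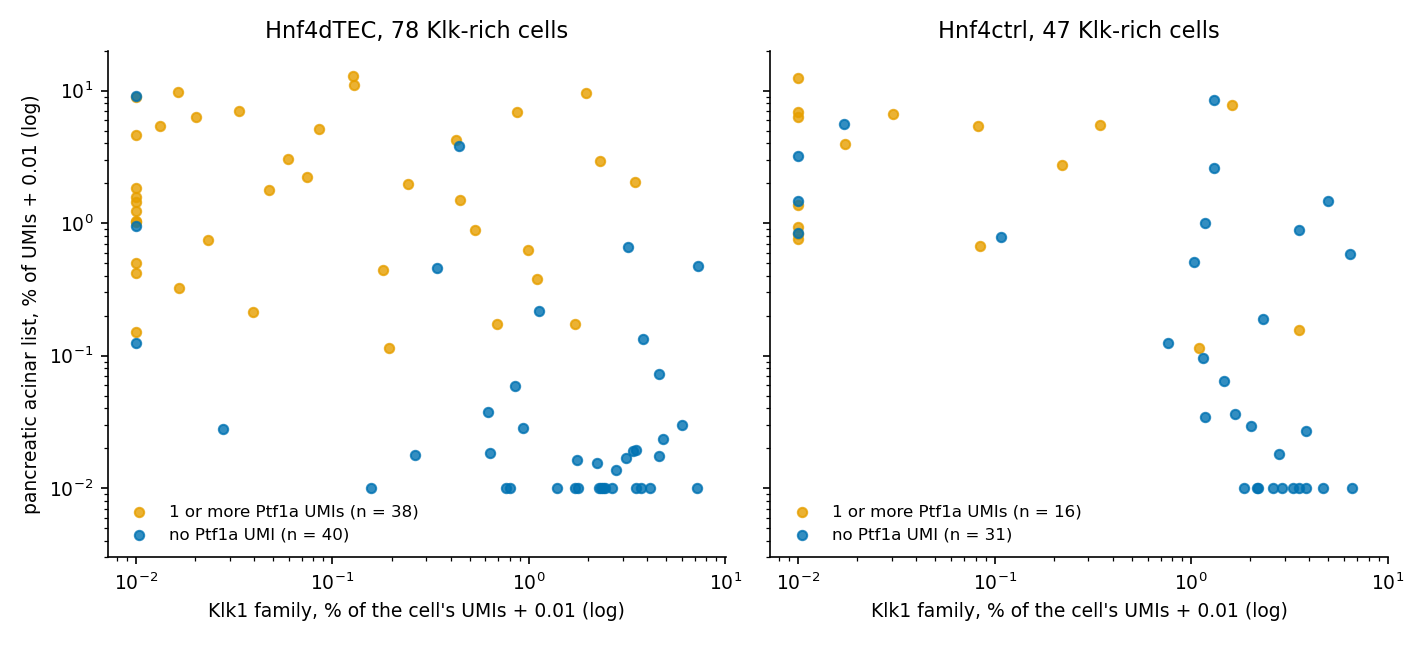
Share of a cell's UMIs in the Klk1 family (x, log) and in the acinar list (y, log), each plus 0.01, with 1 point per Klk-rich cell, Hnf4dTEC left and Hnf4ctrl right, and color showing whether a Ptf1a UMI was found. Cells with Ptf1a lie mostly at the upper left, at a median of 0.0334% Klk1 family and 1.81% acinar UMIs.

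The split was compared within the 5 samples that had at least 5 cells on each side. Of 13 acinar genes with at least 30 UMIs, 9 were higher in the cells with Ptf1a in every one of these samples and 0 were lower in every one; the 9 include Ptf1a, which made the split. Of all 7809 genes with as many UMIs, 7.76% were higher and 6.27% were lower in every sample. The pooled values that follow cover all 7 samples, so differences between samples enter them. Hnf4ctrl sample 2, which had no cell with Ptf1a, enters only the side without it. Gp2 pooled to 5099 CPM in cells with Ptf1a and 362 CPM in cells without it, and Prss2 to 17428 and 1304 CPM. Their median within-sample log2 ratios were 5.70 and 5.09. Of 14 Klk1 family genes, 9 were lower in the cells with Ptf1a in every sample. Klk1b16 pooled to 565 and 6296 CPM and Klk1b26 to 427 and 3768 CPM. Klk1 pooled to 1688 and 8008 CPM, with a median within-sample log2 ratio of -2.34. Klk1b5 did not follow this pattern in every sample, at 433 and 463 CPM.

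Some genes of secretory machinery were also higher on the acinar side. Of 15 such genes with enough UMIs, 7 were higher in the cells with Ptf1a in every sample (Xbp1, Ern1, Hspa5, Sec61b, Dnajb9, Manf and Creld2) and 0 were lower, against 7.76% and 6.27% of all genes. The CPM values in this paragraph are again pooled over all 7 samples. Xbp1, a factor that expands the endoplasmic reticulum of secreting cells, pooled to 655 CPM in cells with Ptf1a and 205 CPM in cells without it. Reg3g, an antibacterial lectin, was also higher there, at 11657 and 3843 CPM. On the other side were Cd52, a small glycoprotein of the cell surface, at 427 and 3120.3 CPM, and Tfcp2l1, a factor of kidney and salivary ducts, at 24.6 and 234 CPM. Car8 and Resp18 differed in sign between samples, with log2 ratios between -2.63 and 2.72 for Car8 and between -4.59 and 2.02 for Resp18.

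Cells with Ptf1a were 7 of 16, 10 of 18, 9 of 17 and 12 of 27 in Hnf4dTEC samples 1 to 4, and 5 of 8, 0 of 6 and 11 of 33 in Hnf4ctrl samples 1 to 3. Those shares were 43.8%, 55.6%, 52.9% and 44.4% in Hnf4dTEC and 62.5%, 0% and 33.3% in Hnf4ctrl samples. The groups overlapped. The Wilson upper limit for 0 of 6 cells was 39.0% and the limit from 3 counts was 50%, and both concern cells with a UMI.

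Beyond both sets, other genes were also higher in Klk-rich cells. In all, 80 genes were 4-fold higher than in all other cells, and 14 of them were so in each of the 7 samples. Serpina7, the thyroxine-binding globulin of plasma, had 485, 535, 661 and 442 CPM in Hnf4dTEC and 509, 491 and 338 CPM in Hnf4ctrl Klk-rich cells, against 36.5 CPM in all other cells. Its samples differed less from one another than those of the Klk1 family.

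Slc22a22, an organic anion transporter of mouse kidney, was 3.35 higher on the log2 scale. Csf2rb and Csf2rb2, similar chains of cytokine receptors, were 3.25 and 2.92 higher. Resp18, a protein of endocrine granules, was 3.16 higher than in all other cells, yet only 0.04 higher than in Aire-adjacent cells, where it had 1140 CPM. The lysozymes Lyz1 and Lyz2, whose reads may be split between them, were 2.88 and 2.53 higher. Ang (2.87), Msln (2.71), the antibody transporter Pigr (2.62) and Reg3g (2.88) were raised as well. Reg3g was not particular to the class. Its median of 5463 CPM was below those of Secretory (9996 CPM) and Entero-hepato cells (7354.5 CPM over 3 samples). Lyz1 is also on the list of myeloid markers, whose other members included Cd79a and Tyrobp at 0 UMIs.

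**Figure D4:**
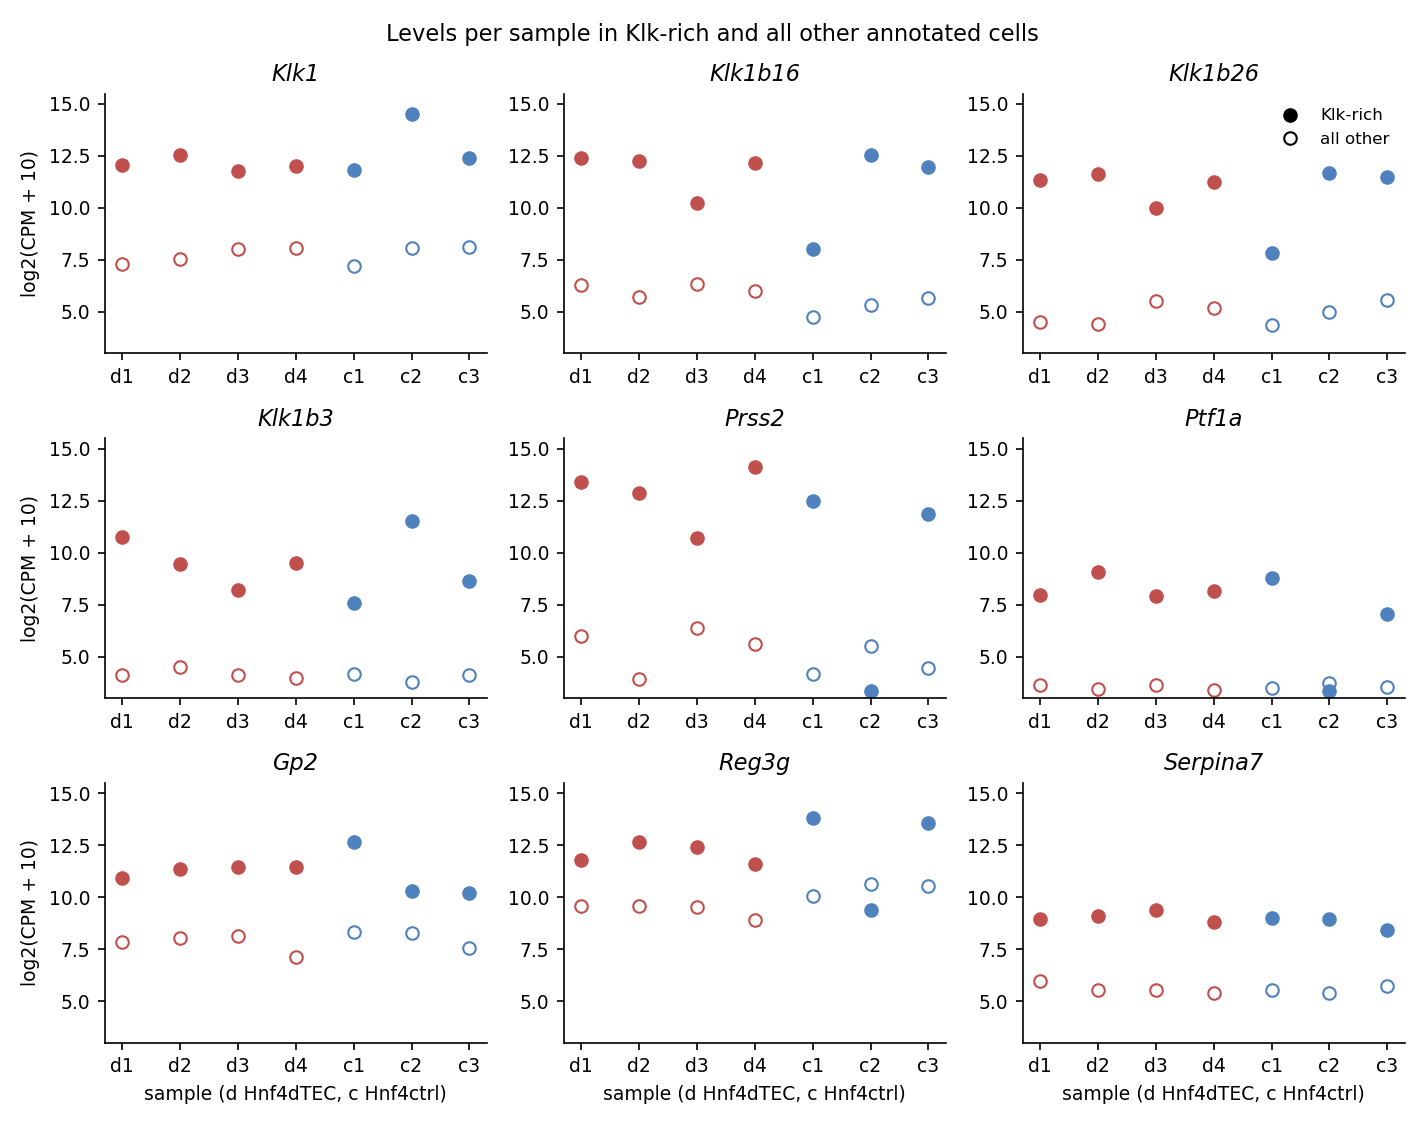
Log2 of CPM plus 10 (y) of selected genes in Klk-rich cells (filled) and all other annotated cells (open) for Hnf4dTEC samples 1 to 4 (d1 to d4) and Hnf4ctrl samples 1 to 3 (c1 to c3). Klk1 and Gp2 are above the other cells in all 7 samples, while Ptf1a and Prss2 are at 0 in c2.

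Genes of the tuft, keratinocyte, ciliated and proliferation lists were lower in Klk-rich cells than in all other annotated cells. Those 9060 cells include 4118 Tuft cells and the Keratinocyte and Ciliated classes themselves. Of these lists 13 tuft, 25 keratinocyte, 11 ciliated and 13 proliferation genes were in the counts. Against Aire-adjacent cells, 1 tuft, 2 keratinocyte, 0 ciliated and 0 proliferation genes were 4-fold lower, as were 1.08% of all measured genes. Against Aire-expressing cells these counts were 0, 4, 0 and 1, and the share of all measured genes was 2.49%. In each of these comparisons 1 keratinocyte gene was 4-fold higher. Counts of 0 on lists this short are near the background. A total of 184 genes, 1.7% of those measured, were 4-fold lower than in all other cells. Of 12 measured tuft markers, 10 were 4-fold lower, among them Gnat3, a taste G protein, with a median of 19.6 CPM in Klk-rich cells against 949 CPM. Dclk1 had 46.1 CPM against 1005 CPM. Of 22 measured keratinocyte genes, 9 were lower, with Krt17 at 123 CPM against 921 CPM and Krtdap at 10.2 CPM against 581 CPM. Of 9 measured ciliated genes, 5 were lower. Lists of other mimetic classes did not run this way: of 10 measured neuroendocrine genes 1 was 4-fold higher and 0 were lower (median log2 ratio 0.63), and of 17 secretory genes 2 were higher and 2 were lower (median 0.73). Of 13 proliferation genes, 3 were lower, and Top2a had 3 UMIs in all Klk-rich cells. Tmsb10, an actin-binding peptide, was at 92.1 CPM against 892 CPM.

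Of the salivary list, 0 of 6 measured genes were 4-fold higher. Egf, made by the same ducts as the kallikreins, had 6 UMIs in the class. Wfdc18, also on the list, was abundant at 3075 to 9335 CPM, but all other cells had a median of 3574 CPM. On the lists of keratinocyte (22 genes measured), gut (10), ciliated (9), muscle (5), endothelial (4), endocrine pancreas (3), thymocyte (2), fibroblast (2), ionocyte (1) and kidney tubule (1) genes, 0 were 4-fold higher. With 0.738% of all genes as much higher, 0 on lists this short is near the background.

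Klk-rich cells were then set beside the Aire-adjacent and Aire-expressing classes. Of the other 14 classes, Aire-adjacent cells were the most alike over 8327 genes (Spearman rho 0.876), followed by Neuroendocrine (0.859) and Secretory cells (0.842), with Aire-expressing cells at 0.734. These values describe correlations across genes of cells from the same library. Aire itself was at 70.5, 49.1, 30.5 and 21.2 CPM in Hnf4dTEC and 29.9, 30.7 and 33.4 CPM in Hnf4ctrl Klk-rich cells. Its median was 766 CPM in Aire-expressing and 248 CPM in Aire-adjacent cells, above every Klk-rich sample.

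Fezf2, a further factor behind peripheral genes in the medulla, had 221 CPM in Klk-rich, 511 CPM in Aire-adjacent and 587 CPM in Aire-expressing cells. Class II genes of the Aire stage followed it, with Cd74 at log2 ratios of -1.20 against Aire-adjacent and -1.40 against Aire-expressing cells. On the 18 Aire-stage genes as a whole, 0 were 4-fold higher and 2 were 4-fold lower than in Aire-adjacent cells, with a median of -1.05.

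Of 10401 genes measured against Aire-adjacent cells, 85 were 4-fold higher (0.817%) and 112 were lower (1.08%). Of 10837 measured against Aire-expressing cells, 224 were higher (2.07%) and 270 were lower (2.49%). The Klk1 family had 11 of 14 genes past 4-fold over Aire-adjacent and 12 of 14 over Aire-expressing cells, with medians of 3.31 and 3.95 on the log2 scale. Acinar genes past 4-fold numbered 8 in each comparison. In all, 71 genes were 4-fold higher than both Aire classes and 42 were higher than all 3 comparison groups.

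The family's lead over Aire-adjacent cells varied between samples. Klk1b16 was 5.36 higher in the median but 0.05 higher in Hnf4ctrl sample 1, the lowest of the 7. Gp2 was 5.60 higher than in Aire-adjacent and 6.47 higher than in Aire-expressing cells, and at least 2.27 and 4.60 higher in each sample. Genes raised over Aire-expressing cells in particular included Rptn, an epidermal matrix protein (5.28), and Stxbp5l, a regulator of vesicle release (5.08). Upk3a, a protein of the bladder lining, was among the highest over Aire-adjacent cells (3.92).

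The genotype comparison asked whether the number and genes of Klk-rich cells differ without HNF4 factors, nuclear receptors that drive liver and gut genes. The class made up 0.969%, 1.31%, 1.14% and 1.97% of annotated cells in Hnf4dTEC samples 1 to 4, from 16, 18, 17 and 27 cells. It made up 0.999%, 0.656% and 2.09% in Hnf4ctrl samples 1 to 3, from 8, 6 and 33 cells. The 95% Wilson intervals, which cover counting error only, ran from 1.35% to 2.85% in Hnf4dTEC sample 4 and from 1.49% to 2.92% in Hnf4ctrl sample 3. The groups overlapped, and each had 1 sample well above its others.

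The mean share was 1.35 ± 0.436% in Hnf4dTEC (SD, n = 4) and 1.25 ± 0.749% in Hnf4ctrl (SD, n = 3). The 2 means were closer than the spread between samples (log2 fold change 0.02). By edgeR the p adjusted over classes was 0.971, and a two-sided exact permutation gave 0.8. The smallest p that the 35 splits of these samples allow is 0.0286. Left out, Hnf4ctrl sample 3 gave 0.70 on the log2 scale (edgeR adjusted p = 0.363) and Hnf4ctrl sample 2 gave -0.26 (edgeR adjusted p = 0.996).

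Of the targeted genes, Hnf4a had 0 UMIs in Klk-rich cells of every sample, so the class cannot show its loss. Hnf4g had 97.0, 172, 219 and 214 CPM in Hnf4dTEC and 379, 92.1 and 246 CPM in Hnf4ctrl Klk-rich cells. Its log2 fold change of -0.52 missed the threshold (edgeR quasi-likelihood adjusted p = 0.958). The assay reads only 3′ ends, which need not fall in what was deleted, and so gives no check of the deletion. Foxn1, which carries the cre, had between 2.64 and 40.7 CPM over the 7 samples.

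Of 4427 genes tested in Klk-rich cells, 0 were higher (0%) and 1 was lower (0.0226%) in Hnf4dTEC samples by edgeR's quasi-likelihood test at an adjusted p under 0.05. At an unadjusted p under 0.05 there were 241, and DESeq2 called 7 genes, Glis3 among them. In simulated sums of the same size, 77 of 100 genes changed 4-fold and 84 of 100 changed 8-fold were found, with 7 false calls among 4703 genes. The simulation gave every gene the same common spread and changed only genes that had passed the filter. It therefore does not show how often such changes would be found in genes that vary more between samples. The gene that fell was Glis3 (ENSMUSG00000052942.13), a zinc finger factor needed for pancreatic beta cells, thyroid and kidney. Its position is chromosome 19, 28258851 to 28680077, minus strand (GRCm38).

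Glis3 was at 26.5, 34.4, 40.7 and 39.7 CPM in Klk-rich cells of Hnf4dTEC samples, from 6, 7, 8 and 15 UMIs. It was at 359, 246 and 182 CPM in those of Hnf4ctrl samples, from 36, 16 and 87 UMIs. The groups did not overlap, but the share of all tested genes without overlap is not given here, so this adds nothing to the test. The means were 35.3 ± 6.50 CPM (SD, n = 4) in Hnf4dTEC and 262 ± 90.1 CPM (SD, n = 3) in Hnf4ctrl samples, with a log2 fold change of -2.88 (SE 0.33, edgeR quasi-likelihood adjusted p = 0.0227). Cells with a Glis3 UMI were 4 of 16, 3 of 18, 1 of 17 and 7 of 27 in Hnf4dTEC, and 4 of 8, 2 of 6 and 16 of 33 in Hnf4ctrl samples. The counts rested on few cells, with at least 50% of all Glis3 UMIs in 8 cells. The highest count in 1 cell was 15, 12 and 17 UMIs in Hnf4ctrl samples 1 to 3. In Hnf4dTEC samples 1 to 4 it was 3, 3, 8 and 5 UMIs.

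In all other annotated cells Glis3 had 103, 99.4, 92.4 and 98.6 CPM in Hnf4dTEC and 131, 139 and 111 CPM in Hnf4ctrl samples. Its change of -0.36 on the log2 scale missed the threshold there (edgeR adjusted p = 0.273). The difference between the effects was tested as an interaction over 17121 genes, of which 0 were higher (0%) and 1, Glis3, was lower (0.00584%). It was -2.44 on the log2 scale (edgeR quasi-likelihood adjusted p = 0.0125).

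The level of Glis3 in Hnf4dTEC Klk-rich cells was near the medians of Aire-adjacent (27.8 CPM) and Aire-expressing cells (22.3 CPM). Its highest class medians were 372 CPM in Entero-hepato (over 3 samples), 267 CPM in Neuroendocrine and 163 CPM in Tuft cells. The summed level of the entero-hepato list in Klk-rich cells was 3664, 6951, 5753 and 3412 CPM in Hnf4dTEC and 15623, 1720 and 12958 CPM in Hnf4ctrl samples. It was thus highest in Hnf4ctrl samples 1 and 3 and lowest in Hnf4ctrl sample 2. Much of this sum was Reg3g, with a median of 5463 CPM over the samples, against 5753 CPM for the whole list. Reg3g was higher in Secretory cells (median 9996 CPM), so the sum is largely a reading of 1 gene that is not particular to Entero-hepato cells. Of 4 members of the list tested by genotype, 0 were called, with a median log2 fold change of -1.32 and 0 above 0. Hnf4a and Apob, members of the same list, were at 0 UMIs. The neuroendocrine list summed to 1843, 1988, 1570 and 2124 CPM in Hnf4dTEC and 2755, 3101 and 1085 CPM in Hnf4ctrl samples, and the tuft list to 1914, 324, 584 and 1397 CPM in Hnf4dTEC and 589, 292 and 935 CPM in Hnf4ctrl samples. The groups overlapped in all 3 sums, and their part in the Glis3 result was not tested. Between cells with and without Ptf1a, Glis3 was higher with it in 3 of the 5 samples compared, with log2 ratios between -3.31 and 2.04.

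The call of Glis3 within Klk-rich cells was lost when any 1 sample other than Hnf4ctrl sample 3 was left out. Its adjusted p was 0.146, 0.0821, 0.134 and 0.127 without Hnf4dTEC samples 1 to 4, 0.0797 and 0.0996 without Hnf4ctrl samples 1 and 2, and 0.0204 without Hnf4ctrl sample 3 (edgeR). The log2 fold change stayed between -3.16 and -2.58, and the interaction passed in all 7 of these fits (edgeR adjusted p between 3.04e-06 and 0.00585). Those 7 interaction fits called 23 to 105 genes, against 1 with all samples. Their prior degrees of freedom, which set how far edgeR pools the spread over genes, were 49.6 or more, against 27.0 with all samples, so their smaller p-values are no sign of stability.

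**Figure D5:**
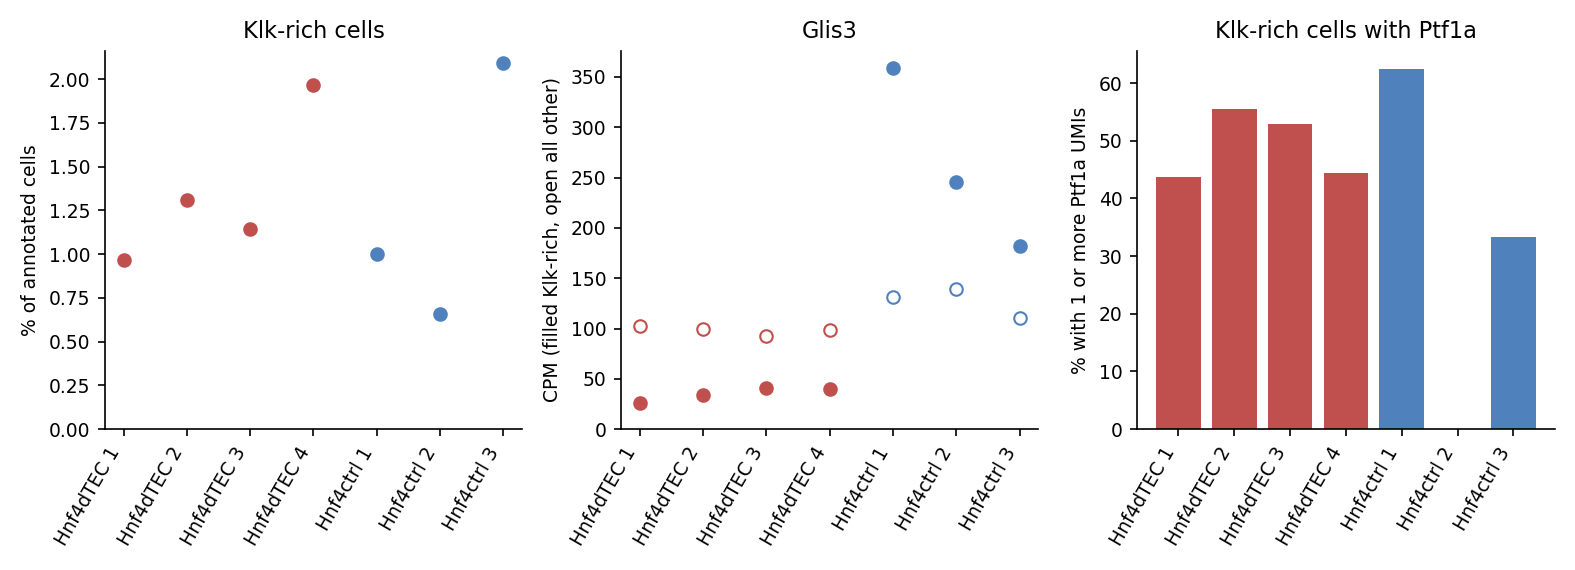
Share of Klk-rich cells in %, Glis3 in CPM (filled points Klk-rich, open points all other cells) and share of Klk-rich cells with a Ptf1a UMI in %, per sample, with Hnf4dTEC samples left of Hnf4ctrl samples. Glis3 in Klk-rich cells is at 40.7 CPM or less in 4 Hnf4dTEC samples and at 182 CPM or more in 3 Hnf4ctrl samples, while both shares overlap.

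Genes that define the class did not pass by genotype. Of 12 Klk1 family genes tested, 0 were called in either direction, with a median log2 fold change of -0.67, against 0.01 over all genes tested. Klk1 averaged 4450 ± 1046 CPM in Hnf4dTEC (SD, n = 4) and 10774 ± 10937 CPM in Hnf4ctrl samples (SD, n = 3), which is -1.39 on the log2 scale (edgeR adjusted p = 0.873). Without Hnf4ctrl sample 2, which has 6 Klk-rich cells, it was -0.03. Of 9 acinar genes tested, 0 were called, with a median of 0.63. Prss2 was 1.59 higher (edgeR adjusted p = 0.944) and Spink1 was at -2.28 (edgeR adjusted p = 0.643), so members of the list differed in sign.

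Some genes that missed the threshold were singled out, after their values were seen, for a lack of overlap between the groups. The share of all 4427 tested genes without overlap is not given here, so the lack of overlap is no sign of an effect. Il10, a cytokine that dampens inflammation, had 83.8, 34.4, 127 and 106 CPM in Hnf4dTEC and 9.98, 15.4 and 8.35 CPM in Hnf4ctrl Klk-rich cells (log2 fold change 3.11, edgeR adjusted p = 0.330). Ambp, a plasma protein of liver, had 0 UMIs in the 4 Hnf4dTEC samples and 7, 47 and 79 UMIs in the 3 Hnf4ctrl samples (edgeR adjusted p = 0.330). It was among the 7 genes that DESeq2 called. Calml4, which takes part in building microvilli, had 30.9, 14.7, 20.3 and 21.2 CPM in Hnf4dTEC and 79.9, 92.1 and 71.0 CPM in Hnf4ctrl samples (log2 fold change -1.85, edgeR adjusted p = 0.330). In all other annotated cells Calml4 was also lower in Hnf4dTEC samples and passed the threshold (log2 fold change -0.74, edgeR adjusted p = 0.0320).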

How the data were processed

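The authors deposited UMI counts per gene and barcode with a table of cell classes and hash tags. Cell Ranger 6.1.0, the build mm10 and Seurat 4.0.2 come from the submitters' processing notes, but the matrix header gives Cell Ranger 7.0.0. All 125 Klk-rich cells were kept, and 8904 barcodes without annotation were used only where named. Counts were summed per class and sample. Genotypes were compared with edgeR 4.0.16 (R 4.3.3; filterByExpr, TMM, quasi-likelihood test, Benjamini-Hochberg, 0.05), in samples with at least 5 Klk-rich cells. Ratios between classes used CPM plus 10. The named genes were, among 6277 with at least 30 UMIs and 1 or more per sample, the 25 highest over all other cells, the 10 highest over each Aire class, the 10 lowest among genes at 50 CPM or more in other cells, kallikreins with 10 UMIs, up to 4 members of each of 29 lists, genotype calls, and Hnf4a, Hnf4g, Foxn1 and Aire. The members and lists were chosen with earlier results of these data known. Doublets were marked with Scrublet (scanpy 1.11.5). Of 55487 genes, 54435 matched GENCODE M21 by versioned ID. Fits were tested on simulated data. Some genes that the rule names are not reported here.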

Additional observations from a re-analysis of the deposited data

Results flagged for a closer look

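Among 40 levels and shares checked in the 4 Hnf4dTEC samples, 5 had a sample apart from the other 3 by more than Dixon's 95% critical value, which chance alone exceeds in about 1 in 20 groups. Ptf1a stood at 530.2 CPM in the Klk-rich cells of Hnf4dTEC sample 2, against 229 to 272 CPM in the other Hnf4dTEC samples. Zg16, a protein of zymogen granules, was at 1419 CPM in the same sample. Reg1, an exocrine secretory protein, reached 2416 CPM in Hnf4dTEC sample 1, where 1 cell held most of its UMIs. Scg2, a protein of endocrine granules, was at 436 CPM in Hnf4dTEC sample 4.

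Hbb-bs, a globin of red blood cells, was at 17242 CPM in the Klk-rich cells of Hnf4dTEC sample 4. There 1 cell of 30516 UMIs had 39.05% haemoglobin UMIs, 15 Ptf1a UMIs and no mark from Scrublet. Without the 2 Klk-rich cells over 1% haemoglobin, edgeR called 1 gene by genotype, Glis3.

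The genotype effect on Glis3 differed between Klk-rich and all other annotated cells by -2.44 on the log2 scale (edgeR quasi-likelihood interaction, adjusted p = 0.0125). Glis3 was lower in Klk-rich cells of all 4 Hnf4dTEC samples than in those of any of the 3 Hnf4ctrl samples. The share of all tested genes of which this holds is not given here, so it adds nothing to the test.

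Barcodes without annotation held cells with the same kallikreins. Of 5017 such barcodes with at least 1254 genes, the fewest of any annotated cell, 64 had 1% or more of their UMIs in the Klk1 family. That share was 1.28%, against 0.806% of annotated cells outside the Klk-rich class. These 64 had a median of 15485 UMIs, and 6 were marked by Scrublet. A Ptf1a UMI was found in 93 of the 5017, of which 28 were marked. Why they were left out of the annotation was not tested.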

How the results depend on the processing

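The number of genes called by genotype in Klk-rich cells (1 by the edgeR test) was 7 with DESeq2, 198 without a filter on low counts and 11 with at least 10 Klk-rich cells, which leaves 1 Hnf4ctrl sample, assumed to vary like the others. It was 0 in cells without Ptf1a and 0 in cells with it, and 0 to 1 when each sample was left out. With the replicate block over numbers 1 to 3 it was 0, and over the same 6 samples without the block also 0. Samples of the same number correlated at 0.00, 0.05 and 0.03, so the numbers do not pair them. The interaction (1 gene) gave 70 without a filter and 23 to 105 when a sample was left out, with Glis3 in each. The log2 fold change of the share of Klk-rich cells (0.02) was -0.13 with the replicate block, -0.23 over numbers 1 to 3 without it, and -0.26 to 0.70 when a sample was left out. Genes 4-fold higher than all other cells (80) numbered 196 with 1 CPM added and 37 with 50 CPM, and 71 to 88 when a sample was left out. Over Aire-adjacent cells (85) they numbered 213, 29 and 79 to 102, and over Aire-expressing cells (224) 530, 68 and 212 to 227. The causes were not tested, except that fewer samples or added CPM act by construction and that the interaction fits with more calls had more prior degrees of freedom. Of 242 settings for single genes and shares of cells with a UMI, 207 kept their direction and side of the threshold or their value within the spread, 9 moved further, 10 lost and 3 gained a call, and 13 changed the sign of a genotype fold change that passed no threshold. For Klk1b16 (0.14) it was -0.012 with at least 10 Klk-rich cells and -0.40 to 0.89 when a sample was left out. For Klk1b26 (0.015) it was -0.0083 without cells marked by Scrublet, -0.023 over numbers 1 to 3, -0.34 with at least 10 Klk-rich cells and -0.52 to 0.53 when a sample was left out. For Gp2 (-0.26) it was 0.16 with the replicate block, 1.10 with at least 10 Klk-rich cells and -0.66 to 0.98 when a sample was left out. The share of Klk-rich cells also changed sign, in 5 of its settings. Glis3 had adjusted p-values between 5.67e-10 and 0.750 over the settings. Hnf4ctrl sample 2 had 6 Klk-rich cells.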
